A study of Arabidopsis thaliana with 8 samples.

Results

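Open chromatin that lies deep inside genes, away from both gene ends, was examined in the inflorescence apex of Arabidopsis thaliana. Transposase hypersensitive sites (THSs, stretches of DNA that a transposase can cut) from 6 libraries were joined into 26792 union regions. Of these, 18768 held a THS in every library. A region was kept when it had a THS in all 6 libraries and lay wholly inside a protein-coding gene, at least 1000 bp from either end of that gene. This left 178 regions in 170 genes. The regions were chosen by the presence of a THS in all 6 libraries, so that presence is not a result, and it limits how far the cell populations can differ in them.

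The sites came from ATAC-seq on protoplasts sorted by fluorescence from inflorescence apices. All plants carried the DRNL::erGFP reporter, in which the promoter of DORNRÖSCHEN-LIKE drives a fluorescent protein held in the endoplasmic reticulum, in an ap1cal double mutant background, and were grown for 4 to 5 weeks under long days. GFP+ cells were labelled as lateral organ founder cells and GFP- cells came from the same tissue as their comparison, with 3 libraries of each, which the series calls biological replicates. Apices of about 700 to 900 plants were pooled per sort, giving 95000 to 300000 GFP+ and about 300000 GFP- protoplasts. The double mutant forms proliferating meristems in place of flowers, so both populations come from that tissue and there was no wild-type group. A region open in part of the cells and a region partly open in all of them cannot be told apart in such pools.

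In compact plant genomes, most open chromatin lies at promoters and at the downstream ends of genes. Open stretches inside genes can hold enhancers, alternative start sites or silencers, and the MADS-box gene AGAMOUS is a textbook case, because its large intron carries the sequences that control its expression in flowers. Genes of the shoot apex that guide where organs form include homeodomain proteins of the KNOX and BEL1-like classes, AINTEGUMENTA-like proteins, and the YABBY and KANADI proteins that mark the lower side of organs.

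The lists held between 24156 and 28757 THSs per library and covered between 17.28 and 19.56 Mb. Read depth was not given, so a missed weak site and a closed one cannot be separated. DRNL, the source of the reporter's promoter, had 11.2% of its gene body covered in each GFP+ library against 3.55%, 3.55% and 0% in the GFP- libraries. The gene is only 1014 bp long and sites come in steps of 100 bp, so these shares stand for short stretches. Among epidermal genes, FDH was covered to 6.22% in every library, GL2 to at most 1%, and ATML1 to between 4.57% and 13.3%, with overlapping groups. None of the 2 photosystem genes long enough to hold a deep region held one.

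The interior of genes had the lowest coverage of the 3 parts of the gene space measured. Base pairs at least 1000 bp from both ends summed to 20.55 Mb, of which 2.87% ± 0.221 was covered by THSs in GFP+ and 3.00% ± 0.152 in GFP- libraries (SD, n = 3 each; two-sided exact permutation p = 0.5). The outer parts of the same kind of genes, within 1000 bp of an end, were covered to 14% ± 1.2 and 14.4% ± 0.649 (SD, n = 3 each; exact permutation p = 0.6). Flanks within 1000 bp outside genes reached 32.9% ± 2.1 and 33.5% ± 1.6 (SD, n = 3 each; exact permutation p = 0.6). The differences between populations were smaller than the spread of the GFP+ replicates in each of these classes. With 3 libraries against 3, the smallest two-sided p of this test is 0.1.

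**Figure D1:**
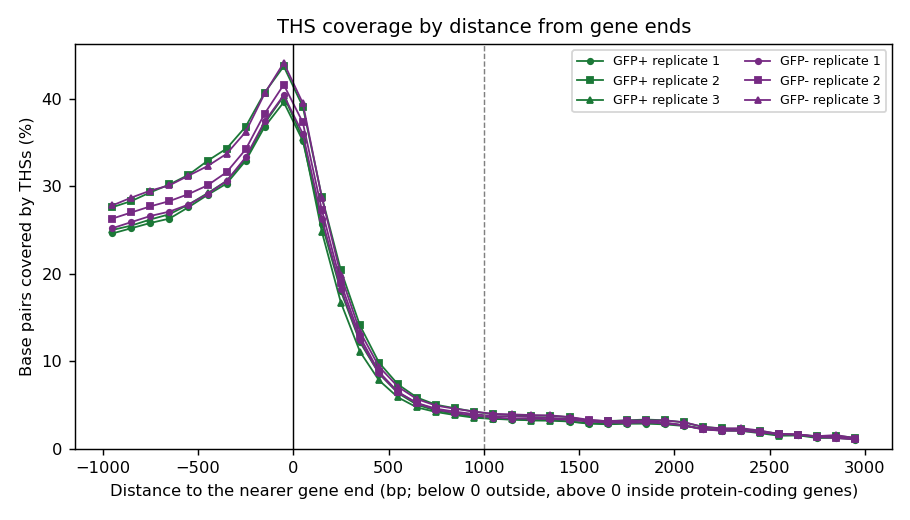
Percent of base pairs covered by THSs (vertical axis) in steps of 100 bp by distance to the nearer end of a protein-coding gene (horizontal axis, below 0 outside genes), with 1 line per library and a dashed line at 1000 bp. Coverage was between 39.6% and 44.1% just outside gene ends and between 3.41% and 3.99% at 1000 to 1099 bp inside, with the libraries of both populations intermingled.

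Coverage fell steeply over the outermost base pairs of a gene and slowly after that. In the 100 bp just outside gene ends the libraries ranged from 39.6% to 44.1%. They ranged from 5.87% to 7.35% at 500 to 599 bp inside and from 3.41% to 3.99% at 1000 to 1099 bp. At 2900 to 2999 bp the range was 1.06% to 1.27%. The 1000 bp limit therefore sits on the flat part of this profile. Just inside it lay the regions of CAM7 at 1001 bp, CKL2 at 1004 bp and CYP79B3 at 1004 bp, and just outside it those of SMB at 998 bp, CSLG2 at 994 bp and AT1G68570 at 991 bp.

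The share of regions present in every library was lower deep inside genes than over all union regions, given here without a test. Of 418 union regions deep inside a gene, 178 (42.6%) had a THS in all 6 libraries, close to the 924 of 2215 (41.7%) for regions inside a gene but nearer an end. Over all union regions the share was 70.1%. At the other extreme, 75 of the 418 (17.9%) were seen in 1 library alone, against 8.54% of all union regions.

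The 178 regions had a median width of 700 bp, with quartiles of 500 and 1100 bp and a range from 200 to 3000 bp. They summed to 144.9 kb, of which 88.1 kb (60.8%) was covered in all 6 libraries. Coverage was complete in every library for 18 regions. In 142 regions each library had a single THS, and the most in any library was 3. Only the region in BRX had no base pair covered in all 6 libraries. Chromosome 1 held 48, chromosome 2 held 23, chromosomes 3 and 4 held 34 each and chromosome 5 held 39.

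Each THS carries a score set by the authors on a scale that was not given, so it was used only as a percentile within each library's list. The median over the regions was the 44.6th percentile, against 43.5 for the 924 regions inside genes nearer an end, 51.4 for 3628 regions outside genes and 64.3 for 14038 regions lying across a gene end. Thus the typical deep region ranked below the typical site at a gene end. Still, 6 regions stood above the 90th percentile in all 6 lists, 53 stood above the 50th in all 6, and 5 stood below the 25th in all 6. Wide regions ranked higher: the median was 24.8 for the 23 regions of 200 to 300 bp, 30.9 for the 64 of 400 to 600 bp, 48.8 for the 44 of 700 to 1000 bp, 68.1 for the 36 of 1100 to 1600 bp and 84.9 for the 11 of 1700 to 3000 bp.

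**Figure D2:**
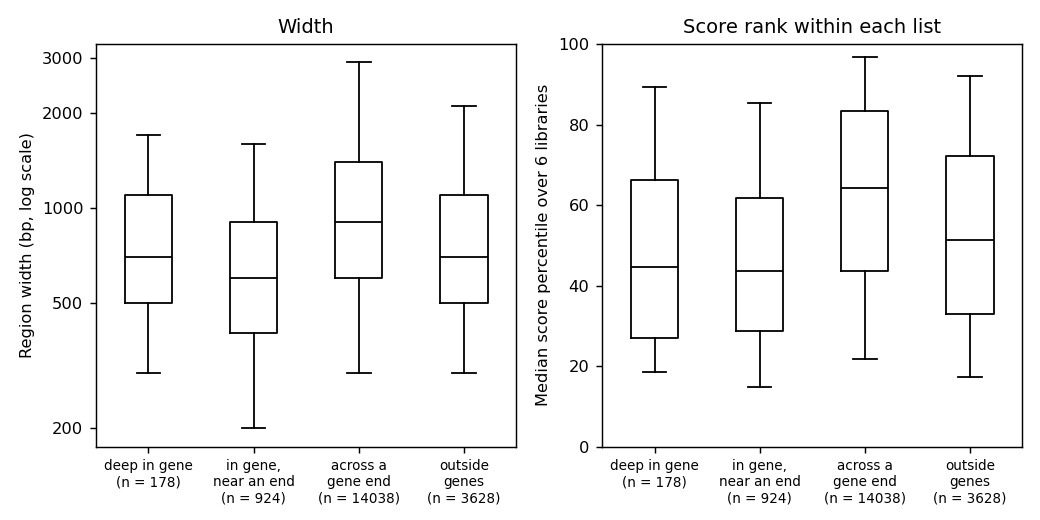
Region width in bp on a log axis (left) and median score percentile over the 6 libraries (right) for regions with a THS in all 6 libraries, by place relative to protein-coding genes. Boxes show quartiles with the median line and whiskers run from the 5th to the 95th percentile; the median width was 700 bp in the 178 deep regions and 900 bp in the 14038 across a gene end, and the median score percentiles were 44.6 and 64.3.

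The widest region lay in CYCJ18, which encodes a cyclin of the J18 type, at chr2:411701-414700. The THSs covered 2900, 2900 and 2800 bp of its 3000 bp in the GFP+ libraries and 2900, 2800 and 2900 bp in the GFP- libraries. Its median score percentile, 97.5, was also the highest of the 178. The next region present in all 6 libraries lay only 100 bp away. The gene end with the higher coordinate was itself overlapped by a region present in all 6. A second region of 3000 bp lay in AT4G21910 at chr4:11626901-11629900, with 2500, 2900 and 2600 bp covered in GFP+ and 2300, 2600 and 2600 bp in GFP- libraries. In CYCJ18 both populations had nearly the whole stretch open, whereas AT4G21910, with means of 88.9% and 83.3%, was not far above the average of all deep regions.

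Other regions of high rank were those of AT3G52700 (96.7th percentile), AIL6 (95.2), AT1G80610 (94.8), ROT3 (93.0), ABCG25 (93.0), AT4G02940 (92.6) and AG (91.9). The region of AT3G52700 also lies over an end of the protein-coding gene AT3G52710. ROT3 is a cytochrome P450 of brassinosteroid synthesis, and ABCG25 exports abscisic acid from cells. ROT3 had 1100, 1100 and 1000 bp of 1200 bp covered in GFP+ libraries and 1100, 1000 and 1000 bp in GFP- libraries. Next to CYCJ18 and AT4G21910, the widest regions were those of ABCG25 (2500 bp), TGA9 (2400 bp) and AT5G18460 (1800 bp), and 6 regions were 1700 bp wide, in BRX, HEXO3, AT3G52700, AIL6, LAX1 and AT5G61910.

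The share of genes with a deep region rose with gene length, as does the length of the interior that can hold one. The host genes were longer, with a median of 4406.5 bp where it was 3132 bp for the 12647 protein-coding genes of at least 2200 bp, which are those long enough to hold a region. A deep region was found in 0.249% of genes of 2200 to 2999 bp, in 3.04% of those of 4000 to 4999 bp and in 4.92% of those of 10000 to 27265 bp. Per Mb of gene interior, however, the number was highest in genes of 4000 to 4999 bp, at 13.3, and only 4.48 in the longest class. The median distance from a region to the nearer gene end was 1320.5 bp, and 26 regions lay 2000 bp or more from both ends.

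Some interiors were also the ends of other genes. Another annotated gene was touched by 29 regions, a protein-coding one in 24 of them, and 45 regions lay within 1000 bp of an end of another gene. Among the 26 regions farthest inside, 9 touched another gene and 11 lay within 1000 bp of the end of one. The deepest of all was in AT2G34100, 6789 bp from the nearer end, with 300 bp at chr2:14406401-14406700. The next was in AT2G34110, 3717 bp from the nearer end. Both touch other genes, as do those of AT5G61910 (3380 bp), AT5G10540 (2989 bp) and AT1G66880 (2894 bp). The regions of MAPKKK7 (3100 bp), PHOT1 (3080 bp) and TGA4 (2912 bp) touched their host alone, but that of MAPKKK7 lay 60 bp from the end of AT3G13540.

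Open gene ends had similar shares among hosts and among all genes long enough. At least 1 end was overlapped by a region present in all 6 libraries in 110 of 170 hosts (64.7%), against 70.8% of genes long enough. In 44 hosts (25.9%) no THS of any library overlapped either end, and in 23 hosts (13.5%) the deep region was the only accessible part of the gene in any library. AG, the kinase gene MAPKKK7, the chromatin gene SUVH2 and the invertase gene cwINV4 were among these 23. PHOT1, the brassinosteroid synthesis gene CPD and BLH4 had other sites in the gene but none over an end. The shares of 25.9% and 13.5% were counted for hosts only and have no background here.

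By function, 92 hosts had a gene symbol and 78 were listed by locus code alone. Sorted into roles after the members were known, 21 hosts encode transcription factors and 17 encode transporters or channels. A further 8 encode signalling proteins, 7 enzymes of hormone synthesis and breakdown, 4 cell wall enzymes and 3 enzymes of surface lipid synthesis. The other 110 hosts were not sorted.

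Organ initiation genes and vascular genes had the highest shares of the gene lists. Of 19 floral and organ initiation genes long enough, 4 (21.1%) held a deep region, namely AIL5, AIL6, AIL7 and KAN2, and of 13 xylem and phloem genes 3 (23.1%) did, namely BRX, AT3G52490 and AT5G57130, against 1.34% of all genes long enough. The other lists gave 2 of 24 homeobox genes (BLH4 and KNAT2), 2 of 27 light and clock genes (PHOT1 and PHOT2), 2 of 29 auxin genes (ABCB19 and LAX1), 1 of 19 MADS-box genes (AG) and 1 of 27 cell cycle and DNA repair genes (TIL1, a DNA polymerase epsilon subunit, whose region also touches the protein-coding gene AT1G08250). No deep region was found in the listed 25 small RNA, 41 chromatin, 20 receptor kinase, 22 cell wall synthase or 21 cytoskeleton genes long enough. The lists do not hold every gene of their class, so these counts are for the listed genes only. The hosts SUVH2, SDE5, PDF2, TIC, AGL67 and CYCJ18 are on none of the lists. The lists are small, were chosen with earlier results of these data known, and were not tested.

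The AINTEGUMENTA-like genes encode AP2-type transcription factors that act redundantly in organ initiation and leaf arrangement. Of 6 long enough, a family counted after the members were known, 3 held a region. In AIL6 the region at chr5:3317201-3318900 was fully covered, 1700 bp, in all 3 GFP+ libraries and to 1700, 1600 and 1500 bp in GFP- libraries. In AIL7 the region at chr5:26187401-26188200 had 700 bp of 800 bp covered in every GFP+ library and 700, 700 and 800 bp in GFP- libraries. AIL5 varied more, with 600, 900 and 400 bp of 900 bp in GFP+ and 300, 600 and 600 bp in GFP- libraries at chr5:23254601-23255500. The populations overlapped in each of these 3 genes, and the AIL5 region ranked low, at the 28.1st percentile, where AIL6 stood at the 95.2nd.

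KAN2, a KANADI gene of abaxial (lower side) identity, was open over the whole 1500 bp of chr1:11627901-11629400 in 5 libraries and over 1400 bp in GFP- replicate 2. KNAT2, a KNOX homeobox gene of the meristem, had 900, 1000 and 700 bp of 1000 bp covered in GFP+ and 700, 900 and 700 bp in GFP- libraries at chr1:26577701-26578700. Neither gene separated the populations. PDF2, a homeodomain gene of the epidermis, held a region of 200 bp that was identical in all 6 libraries.

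AGAMOUS (AG), the MADS-box gene that specifies stamens and carpels, held its region at chr4:10385601-10387200. The covered length was 1400, 1500 and 1500 bp of 1600 bp in GFP+ libraries and 1300, 1300 and 1200 bp in GFP- libraries. All GFP+ values lay above all GFP- values, with means of 91.7% ± 3.61 and 79.2% ± 3.61 (SD, n = 3 each), but the difference of 12.5 percentage points did not pass the limma test (adjusted p = 0.292). No other THS was found in the gene in any library. Whether the stretch is exonic or intronic was not resolved, since the gene table used here has neither exons nor strand.

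Both phototropin genes, which encode the blue-light receptors of phototropism, held a region, although that of PHOT2 also touches the protein-coding gene AT5G58150. That of PHOT1 at chr3:16819801-16820500 was 700 bp wide in every library and that of PHOT2 at chr5:23529701-23530500 had 600, 400 and 500 bp of 800 bp covered in GFP+ and 500, 500 and 800 bp in GFP- libraries. The auxin exporter gene ABCB19 held 2 regions 2600 bp apart, of 1500 and 500 bp, and the influx carrier gene LAX1 held 1 of 1700 bp with at least 1600 bp covered in every library. In the smaller ABCB19 region each library had either 200 or 500 bp covered, in both populations. Of the xylem and phloem list, AT3G52490 (SMXL3) and AT5G57130 (SMXL5) had overlapping groups, with differences of 0 and -3.33 points.

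A total of 8 genes held a pair of regions and none held more. The pairs in HMA4, a zinc-exporting ATPase gene, and in AT5G04310 were separated by 100 bp, the length of 1 window of the site calls, and those in AGL67, AT3G26440, AT5G22090, AT5G45650 and AT5G50150 by 200 to 700 bp.

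Summed over the 178 regions, coverage in founder cells and in their comparison cells overlapped. The GFP+ libraries covered 116.1, 122.4 and 113.1 kb of them and the GFP- libraries 111.9, 114.9 and 116.9 kb. The mean percent covered per region was 80.1% ± 2.9 in GFP+ and 80.1% ± 0.948 in GFP- libraries (SD, n = 3 each). Of single regions, 72 had the higher mean in GFP+, 73 in GFP- and 33 equal means. The median difference was 0 points, with quartiles of -10 and 9.09 points. A difference of 20 points or more was seen in 20 regions towards GFP+ and in 24 towards GFP-.

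In the limma fit over all 24505 union regions covered in at least 2 libraries, 2 of the 178 regions were covered more in GFP+ cells at an adjusted p under 0.05 and 0 were covered less. They are 1.12% and 0% of the 178. Over all regions fitted, 0.788% were called higher and 2.22% lower in GFP+. Among the 18768 regions present in all 6 libraries the shares were 0.565% and 0.655%. At an unadjusted p under 0.05 from the same limma fit, 12 of the 178 were higher and 11 lower, or 6.74% and 6.18%, against 4.15% and 6.85% of all regions fitted and 4.07% and 4.46% of those in all 6 libraries. The smallest adjusted p of a lower region was 0.114, for AT2G40460. With so few calls, the shares of called regions are not a result about deep regions.

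The values of all GFP+ libraries lay above those of all GFP- libraries in 11 regions (6.18%) and below them in 10 (5.62%). The background shares over all regions fitted were 3.84% above and 6.46% below, and over regions in all 6 libraries 3.8% and 4.17%. Of the 11, none touched another gene, and of the 10, 3 did, where 29 of all 178 did. These counts are too small to compare the directions.

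**Figure D3:**
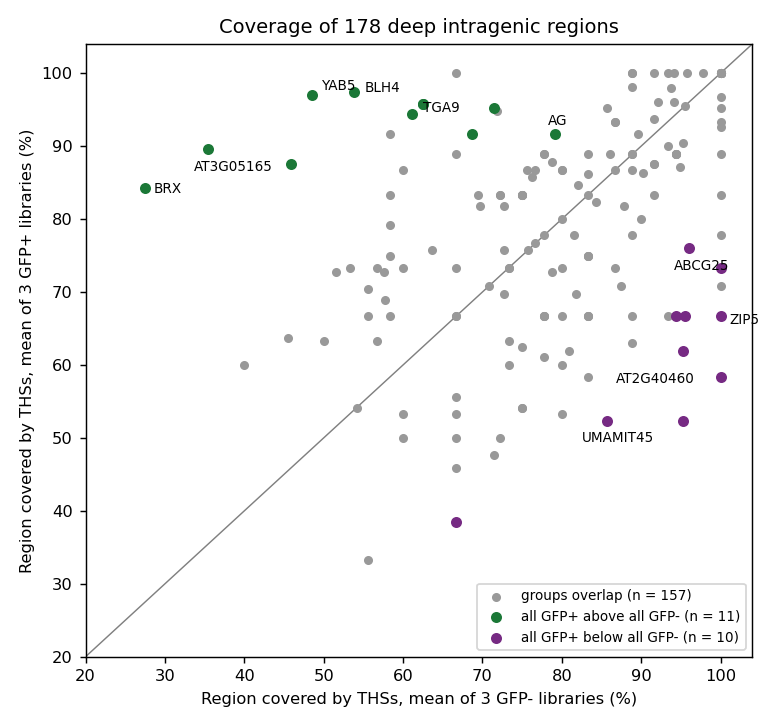
Percent of each deep region covered by THSs, mean of 3 GFP- libraries (horizontal axis) against mean of 3 GFP+ libraries (vertical axis), with 1 point per region and a line of equality. Green points are the 11 regions where all GFP+ libraries lay above all GFP- libraries, purple points the 10 where they lay below, and grey points the 157 where the groups overlapped; some points coincide.

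BLH4 and YAB5 were the genes whose deep region limma called as covered more in GFP+ cells in the fit above. BLH4 (also SAWTOOTH 2) encodes a BEL1-like homeodomain protein that restrains growth of leaf margins. Its region at chr2:10109001-10110300 lay 1294 bp from the nearer end of a gene of 5621 bp. The THSs covered 1200, 1300 and 1300 bp of its 1300 bp in GFP+ libraries and 700 bp in each GFP- library. The GFP- sites were the shorter part of the same stretch, and the GFP+ sites were 500 to 600 bp longer, mostly towards the higher coordinates. The difference was 43.6 ± 5.41 percentage points (SE; limma adjusted p = 0.0212).

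YAB5 encodes a YABBY transcription factor expressed on the lower side of lateral organs. Its region at chr2:11304701-11305800 lay 1210 bp from the nearer end of a gene of 3556 bp. The covered length was 1000, 1100 and 1100 bp of 1100 bp in GFP+ libraries and 400, 600 and 600 bp in GFP- libraries. The lowest GFP+ library was thus well above the highest GFP- library. The difference was 48.5 ± 7.59 points (SE; limma adjusted p = 0.0444). This call was lost when any of the GFP+ libraries, GFP- replicate 2 or GFP- replicate 3 was left out, with adjusted p between 0.0698 and 0.109, while the BLH4 call was kept in all 6 fits that left out a library. Both calls were lost when replicate numbers were fitted as a block, with adjusted p of 0.134 for BLH4 and 0.120 for YAB5.

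**Figure D4:**
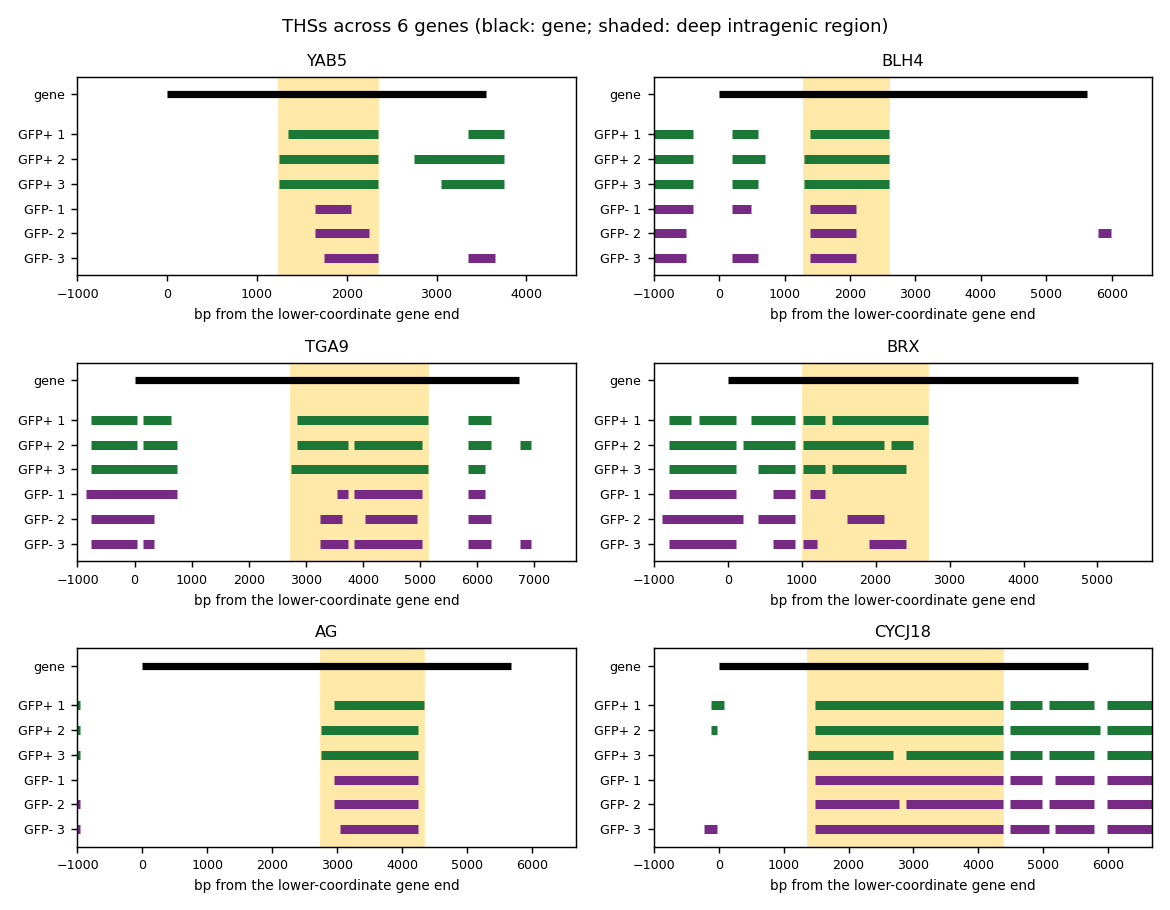
THSs of each library (rows, GFP+ green and GFP- purple) along 6 genes (black bar), by distance in bp from the gene end with the lower coordinate and with the deep region shaded. In BLH4 and YAB5 the GFP- sites cover only part of the stretch that is open in GFP+ libraries, in BRX they are short and scattered, and in AG and CYCJ18 most of the stretch is open in both populations.

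The largest difference of all was in BRX, a gene first known for root growth and for differentiation of the protophloem. At chr1:11446501-11448200 the covered length was 1600, 1400 and 1300 bp of 1700 bp in GFP+ libraries and 200, 500 and 700 bp in GFP- libraries. Every GFP+ library was above every GFP- library, although the difference of 56.9 ± 9.7 points did not pass the threshold (SE; limma adjusted p = 0.0596). The score of this region was low, at the 25.2nd percentile in the median and the 1.87th in its lowest library. Its edge lay 1011 bp from the gene end, and the next region present in all 6 libraries was 100 bp away.

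Next in size was AT3G05165, with 1600, 1300 and 1400 bp of 1600 bp covered in GFP+ and 300, 400 and 1000 bp in GFP- libraries (54.2 points, limma adjusted p = 0.178). TGA9, a bZIP gene with a part in anther development, held its region at chr1:2624601-2627000. The covered length was 2300, 2100 and 2400 bp of 2400 bp in GFP+ and 1400, 1300 and 1700 bp in GFP- libraries (33.3 points, limma adjusted p = 0.131). IDD4, a zinc finger gene of the INDETERMINATE DOMAIN family, had 800, 700 and 800 bp of 800 bp in GFP+ and 500 bp in each GFP- library (33.3 points, limma adjusted p = 0.0723). In these 3 genes every GFP+ library was above every GFP- library, and none passed the threshold.

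The remaining members of this kind with large differences were AT1G54730 and CER1. AT1G54730 had 800, 700 and 600 bp of 800 bp covered in GFP+ and 500, 300 and 300 bp in GFP- libraries (limma adjusted p = 0.181). CER1, an enzyme gene of wax alkane synthesis in the epidermis, had 800, 700 and 800 bp of 800 bp covered in GFP+ and 500, 400 and 600 bp in GFP- libraries (limma adjusted p = 0.198). The wax gene CER3 went the other way in its mean, with 300, 300 and 400 bp of 600 bp in GFP+ and 300, 400 and 500 bp in GFP- libraries, and its groups overlapped.

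The regions more covered in GFP- cells were led by UMAMIT45, which belongs to a family of amino acid transporters. At chr3:10458501-10459900 the covered length was 900, 900 and 400 bp of 1400 bp in GFP+ libraries and 1200, 1400 and 1400 bp in GFP- libraries, a difference of -42.9 points (limma adjusted p = 0.244). AT2G40460 had 300, 200 and 200 bp of 400 bp in GFP+ and 400 bp in each GFP- library (limma adjusted p = 0.114). The monosaccharide transporter gene MSS1 (STP13) had 600, 400 and 500 bp of 1300 bp in GFP+ and 1100, 800 and 700 bp in GFP- libraries (limma adjusted p = 0.384). None of these differences passed the test.

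ABCG25 had the same value in all GFP+ libraries. At chr1:27084601-27087100 exactly 1900 bp of 2500 bp was covered in every GFP+ library and 2200, 2500 and 2500 bp in the GFP- libraries, a difference of -20 points (limma adjusted p = 0.129). The metal transporter gene ZIP5, SKS6 and RCF3 each differed by -33.3 points, AT1G49225 by -28.9 and AT2G34110 by -27.8 points, with limma adjusted p from 0.158 to 0.381.

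**Figure D5:**
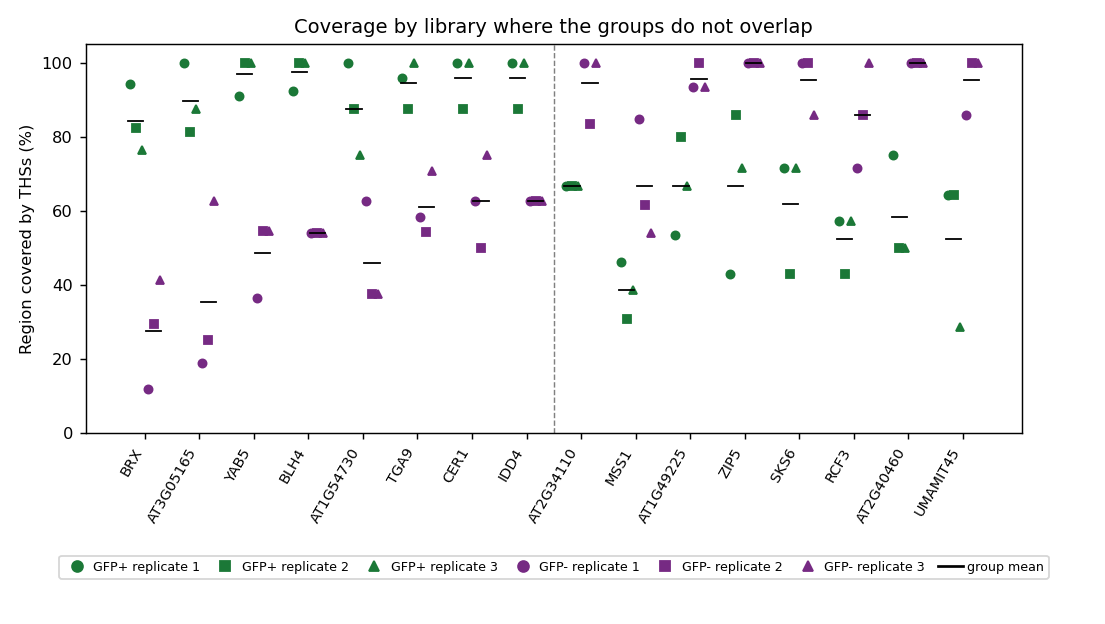
Percent of the region covered by THSs in each library (points by replicate, GFP+ green and GFP- purple, black line for the group mean) for the 8 regions per direction with the largest difference among those where the groups did not overlap. GFP+ libraries lay higher left of the dashed line and lower right of it; limma called only BLH4 and YAB5.

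Roles were given to 60 hosts only. The counts by role leave out the other 110, among them most hosts listed by locus code, and do not compare the roles. The 22 regions of transcription factor genes had 12 higher means in GFP+, 5 lower and 5 equal, with a median difference of 4.05 points and a range from -20.8 to 48.5. The 19 regions of transporter and channel genes had 6 higher, 9 lower and 4 equal, with a median of 0 and a range from -42.9 to 16.7 points. These ranges hold for sorted hosts only. AT3G05165 (54.2 points), AT1G54730 (41.7 points) and AT2G40460 (-41.7 points) were given no role. Unsorted hosts such as these may encode transporters too. The counts, median and range above therefore do not describe all transporter genes among the hosts. The 7 hormone enzyme regions ranged from -13.3 to 11.1 points, with overlapping groups in each. They lie in genes of brassinosteroid (ROT3, CPD), gibberellin (GA2OX8), cytokinin (CKX4), strigolactone (CCD8), salicylic acid (EDS16) and indolic (CYP79B3) metabolism. The CPD region at chr5:1703901-1705500 was the widest of them, with 1300, 1600 and 1500 bp of 1600 bp covered in GFP+ and 1500, 1400 and 1400 bp in GFP- libraries.

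The authors' deposited table lists genes with THSs and with differential sites (dTHS) by population, without values or positions. In the authors' deposited table, 169 of the 170 hosts (99.4%) were listed with THSs in each population, against 82.3% (GFP-) and 94.1% (GFP+) of genes long enough, which follows from how hosts were chosen. The exception in the authors' deposited table was AT1G49225. In the authors' deposited table, 6 hosts (3.53%, background 0.522%) were in the dTHS-up column, namely TGA9, KAN2, BLH4, YAB5, AT3G05165 and AIL5. Each of these 6 had the higher mean coverage of its deep region in GFP+, by 2.22 points in KAN2 to 54.2 points in AT3G05165. In KAN2 and AIL5 the groups overlapped. The column comes from the same series, so the shared direction is not independent support.

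The dTHS-down column of the authors' deposited table held 9 hosts (5.29%, background 1.65%). In 6 of them, among them UMAMIT45 and AT2G34110, the deep region had the lower mean in GFP+, in AT1G59740 the means were equal, and in IDD4 and AT5G48900 it was higher in GFP+, by 33.3 and 18.2 points. The authors' deposited table does not place its sites within a gene, so a listed gene may owe its entry to another site. Hosts were chosen for holding sites and were longer than the background genes, so neither dTHS share is a result about hosts.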

How the data were processed

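The authors made ATAC-seq libraries from sorted protoplasts, per the labels' protocols. The TAIR10 build and the tools SICER, bedtools 2.17.0, Picard 1.105, SAMtools 0.1.19 and BWA 0.7 are named in the submitters' processing notes. For their settings, any read shift and the site thresholds, the sources used here give nothing. Each library's deposited list holds positions and a score per THS. The score was set by the authors on an unstated scale. The deposited gene table of the series holds gene identifiers only, in 4 columns. The 2 sheared DNA controls were not analysed here. Depth is unknown, which limits how finely coverage can be read.

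Sites are whole 100 bp windows, read with the last base included and printed counting from 1. THSs of the 6 lists were merged, touching sites joined. Genes came from a RefSeq table of assembly TAIR10.1, which has no strand, exons or sequence, so no sequence is shown. A region that also touched another gene was kept when a single gene held it with the 1000 bp margin. The percent of each union region covered was fitted with limma 3.58.1 in R 4.3.3 (eBayes with trend, no block), with Benjamini-Hochberg adjustment over 24505 regions. Covered lengths come in steps of 100 bp, and 18 of the 178 regions had the same value in all libraries. P-values measure only the spread between these libraries.

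The members, gene lists and roles were chosen with earlier results of these data known. Regions named are those called, the 8 per direction with the largest difference where groups did not overlap, the 8 widest, the 8 best-scoring, the 8 deepest, list members, and the 3 on each side of the 1000 bp limit; others were picked after their values were seen. Words in gene descriptions were not used, because only 49.2% of genes long enough have any. The code was tested on simulated data.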

Additional observations from a re-analysis of the deposited data

How the results depend on the processing

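With a margin of 500 bp from gene ends, 491 regions were found, with 4 called higher, 2 lower, 31 above and 26 below in GFP+. With 2000 bp, 26 were found, with 0 called higher, 0 above and 2 below, a median difference of -3.48 points and a median width of 600 bp. Dropping the lowest-scoring 10% of each list gave a median width of 800 bp. Requiring 50% coverage in all 6 libraries gave 1 called higher, 7 above, 5 below and a width of 600 bp. Fitting only the regions in all 6 libraries left 1 called higher, BLH4 (adjusted p = 0.0262; YAB5 0.0667). Leaving out each library in turn and rebuilding the regions gave 181 to 198 regions, with median widths of 600 to 700 bp. The fits without each library kept the original 178 regions. They gave 2 called higher each time, 0 to 3 lower, 12 to 15 above, 12 to 18 below and a median difference of 0. BLH4 was among the 2 called higher each time, and the other differed between fits (RBP31, IDD4, AT3G43270, YAB5, AT1G48820 or AT3G05165); no region was called lower in more than 1 of these fits. With the same number of top-scoring sites per library, 24156, there were 160 regions with 3 called higher. In that setting the stretches in BRX (84.3 points, limma adjusted p = 0.0035) and GL3 (83.3 points, 0.01) lost every GFP- site, which had low scores, so they no longer had a THS in all 6 libraries; the GL3 difference was 8.33 points with overlapping groups before. AT3G05165 kept a site in all 6 and passed (60.4 points, 0.032).

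With the replicate numbers as a block, 0 regions were called higher. The numbers were not taken to pair the libraries, but the values do not settle this. Deviations of same-numbered libraries correlated at 0.161, 0.036 and 0.0286. Those of differently numbered libraries ranged from -0.164 (GFP+ replicate 1 with GFP- replicate 3) to 0.139 (GFP+ replicate 2 with GFP- replicate 3). If the numbers do pair the libraries, neither BLH4 nor YAB5 is called. Restricting to the 154 regions that touch a single protein-coding gene, an alternative chosen after seeing the data, gave 2 called higher, 0 lower, 11 above and 7 below. IDD4 passed the threshold on covered base pairs (adjusted p = 0.0215) and without the trend (0.0232). Among the named regions, only HEXO3 changed the sign of its difference, from -1.96 points to 0.98 without GFP+ replicate 1 and to 0.98 without GFP+ replicate 3 (range over the fits that left out a library -7.84 to 0.98), and it was not called in any fit. Coverage in steps of 100 bp and unknown depth limit what short regions can show.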

Other observations

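Of the 418 union regions deep inside genes, 5 had a THS in every GFP+ library and in no GFP- library, and 19 the reverse; over all 26792 union regions the counts were 112 and 562. The 5 lay in AP1, the floral MADS-box gene mutated in these plants, GA1, which encodes an early enzyme of gibberellin synthesis, the receptor kinase gene CRK8, AST91 and AT5G44050. The AP1 region at chr1:25983301-25983900 was 600 bp wide and 1007 bp from the nearer gene end. The 19 seen only in GFP- libraries included the carbonic anhydrase gene CA1, PPDK, the nitrate transporter gene NRT1.5, the abscisic acid breakdown gene CYP707A2 and the defence regulator gene SARD1. These regions are chosen by the comparison itself and are described without a test. All were picked for naming after their values were seen.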
